A study of Mus musculus with 24 samples.

Results

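Atg4a, Hif3a, Upf2, Stxbp3, Snx9, Daam2, Ccnl2 and Cmss1 are 8 genes of the 32962 in a deposited table of single-nucleus counts from mouse lumbar spinal cord. They were chosen by their measured UMI levels in glia, which differed between rotarod and control mice, and all 8 were found in the table. The nuclei came from ICR/CD-1 mice, an outbred stock, of both sexes and 8 to 11 weeks old. The labels name the tissue as brain, but the protocol describes the lumbar cord without dorsal root ganglia. Control mice (n = 9) have no treatment in their labels. Formalin mice (n = 10) were habituated for 1 hour and received 30 µl of 2% paraformaldehyde in the sole of each hindpaw, a painful stimulus. Rotarod mice (n = 5) were habituated for 1 hour and walked on a turning rod, a test of motor performance, whose speed rose over 5 minutes to 40 turns a minute. Formalin samples 1 to 5 resembled samples 6 to 10 in order: over 9103 genes in neurons, with group means removed, the 5 couples correlated at 0.244, 0.152, 0.107, 0.0904 and 0.279, and for all 10 the partner was the most similar formalin sample. Whether the 10 formalin samples are 10 mice, as labelled, or repeat libraries of 5 cannot be told apart here, so n = 10 counts samples, and formalin SDs and p-values may be too small. Nothing states how long after the stimulus the cord was taken, and the labels name no mutation in any group.

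Drop-seq captures single nuclei in droplets and tags each RNA molecule with a unique molecular identifier (UMI), so a count is a count of captured molecules. Each mouse gave 750 barcodes and 549903 to 3243587 UMIs in all. The deposited labels put 13425 of the 18000 barcodes in 7 classes, and those classes were kept. Levels below are UMIs of a gene per 1000000 UMIs of the class in a mouse (CPM), and a mouse needed 10 nuclei of a class to give a value. Control replicate 9 had 6 astrocyte and 5 oligodendrocyte nuclei and so gave no value in either class. The astrocyte markers together stood at 18220 ± 951 CPM (SD, n = 8) in control, 17818 ± 2535 (n = 10) in formalin and 19108 ± 1522 (n = 5) in rotarod astrocytes, and at 1315 ± 410 CPM in control oligodendrocytes, and all 9 were detected. The oligodendrocyte markers stood at 26304 ± 1734 CPM in control, 25745 ± 2024 in formalin and 26220 ± 1700 in rotarod oligodendrocytes, so both classes carried their own markers in the 3 groups. Neuronal markers also reached 10184 ± 3441 CPM in control and 7776 ± 1084 in rotarod astrocytes, and 9484 ± 3258 and 6982 ± 1503 in oligodendrocytes, with Gad1 alone of the 9 at 0 in rotarod astrocytes. The part that carried-over neuronal RNA has in the levels below was not tested. A barcode sequence occurred in more than 1 library 19 times, against 9.66 expected at random.

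The 8 genes do not form a pathway. Atg4a encodes a protease that trims the ubiquitin-like ATG8 proteins in autophagy, the route by which cells enclose and digest their own contents. Hif3a belongs to the family of oxygen-sensitive transcription factors, and some of its products restrain the other members. Upf2 is a core factor of nonsense-mediated decay, which degrades transcripts with premature stop codons, and Ccnl2 encodes a cyclin that associates with splicing kinases in nuclear speckles. Stxbp3 encodes a syntaxin-binding protein (Munc18c) of vesicle fusion, and Snx9 a sorting nexin that couples membrane bending to actin in endocytosis. Daam2 is a formin of Wnt signalling that restrains oligodendrocyte differentiation and is expressed in astrocytes. Cmss1 encodes the mouse counterpart of a yeast ribosomal small subunit protein. Astrocytes maintain transmitter and ion balance around synapses, and oligodendrocytes form myelin in the central nervous system.

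The 8 genes lie on 7 chromosomes (GENCODE M21 on GRCm38). Upf2 lies at chr2:5951469-6056703, Stxbp3 at chr3:108793176-108840526, Ccnl2 at chr4:155812489-155824543, Hif3a at chr7:17031507-17062427, Cmss1 at chr16:57302000-57606864, Snx9 at chr17:5841329-5931954, Daam2 at chr17:49456022-49564343 and Atg4a at chrX:140956907-141164270. All are protein-coding genes, and their spans run from 12.1 kb for Ccnl2 to 304.9 kb for Cmss1. Filip1l lies on the opposite strand within Cmss1, from 57353093 to 57573126 of chromosome 16. Since the deposited counts have no stated strand, reads of Cmss1 and Filip1l cannot be told apart with certainty.

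Promoters of 7 of the 8 genes are in RefSeq's table (GRCm38.p6), from 250 bases before to 50 after the start of transcription. The 4 below belong to genes that were higher (Hif3a, Stxbp3, Atg4a) or lower (Ccnl2) in rotarod astrocytes. Capitals mark the letters GCGTG, on either strand, 1 of the 2 forms of the core bound by hypoxia-inducible factors. The windows are chr7:17062378-17062677 (minus strand), chr3:108840453-108840752 (minus strand), chrX:140956657-140956956 (plus strand) and chr4:155812239-155812538 (plus strand).
Hif3a: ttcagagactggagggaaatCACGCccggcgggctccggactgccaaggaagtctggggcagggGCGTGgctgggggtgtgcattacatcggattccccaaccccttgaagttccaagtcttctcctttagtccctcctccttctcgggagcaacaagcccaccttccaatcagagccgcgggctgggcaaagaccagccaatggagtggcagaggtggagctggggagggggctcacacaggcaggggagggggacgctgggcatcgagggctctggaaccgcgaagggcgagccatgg
Stxbp3: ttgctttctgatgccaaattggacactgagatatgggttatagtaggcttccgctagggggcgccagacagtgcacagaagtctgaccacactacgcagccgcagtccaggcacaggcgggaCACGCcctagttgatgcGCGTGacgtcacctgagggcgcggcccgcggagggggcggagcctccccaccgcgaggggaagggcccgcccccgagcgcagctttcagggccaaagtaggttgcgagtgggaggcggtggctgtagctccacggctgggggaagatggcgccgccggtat
Atg4a: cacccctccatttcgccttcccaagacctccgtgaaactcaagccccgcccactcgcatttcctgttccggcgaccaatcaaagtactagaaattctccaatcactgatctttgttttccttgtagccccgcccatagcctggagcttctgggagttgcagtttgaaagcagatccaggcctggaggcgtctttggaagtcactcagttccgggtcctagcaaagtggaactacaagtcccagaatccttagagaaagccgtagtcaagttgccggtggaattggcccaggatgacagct
Ccnl2: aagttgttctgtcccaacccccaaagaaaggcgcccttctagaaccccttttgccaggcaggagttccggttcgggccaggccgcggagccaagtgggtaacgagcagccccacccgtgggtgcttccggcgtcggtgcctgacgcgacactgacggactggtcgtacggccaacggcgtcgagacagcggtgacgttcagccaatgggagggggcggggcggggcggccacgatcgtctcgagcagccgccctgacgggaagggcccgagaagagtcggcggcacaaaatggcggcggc

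The letters GCGTG occurred in 4 of the 7 promoters (Hif3a, Stxbp3, Daam2 and Cmss1) and in 32.4% of the 32851 mouse promoters in the table. In Hif3a the matches began 230 and 186 bases before the start, and in Stxbp3 they began 128 and 111 bases before it. The other form ACGTG, found in 19.6% of all promoters, the E-box CACGTG, found in 7.15% and containing ACGTG, and the glucocorticoid receptor core ACANNNTGT, found in 6.85%, occurred in none of the 7 windows. A match of letters is a description of sequence only.

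In astrocytes, 7 of the 8 genes were measured well enough for a fit across genes, and 6 of them were higher and 1 lower in rotarod than in control mice. These rotarod values are the ones by which the genes were chosen and are therefore given as a description, without a test. For no comparison below was the share of all genes whose groups do not overlap determined. Of 1804 genes tested in astrocytes, 0.388% differed between rotarod and control mice at an adjusted p under 0.05 with edgeR, and those are exactly the 7 genes. Among the genes just outside the threshold were Cables1 (log2 fold change 1.26) and Ddo (1.01). The fitted log2 fold changes of the 7 genes in astrocytes, rotarod against control, were 1.88 for Atg4a, 1.46 for Hif3a, 1.45 for Upf2, 1.37 for Snx9, 1.34 for Stxbp3, 0.75 for Daam2 and -1.63 for Ccnl2.

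**Figure D1:**
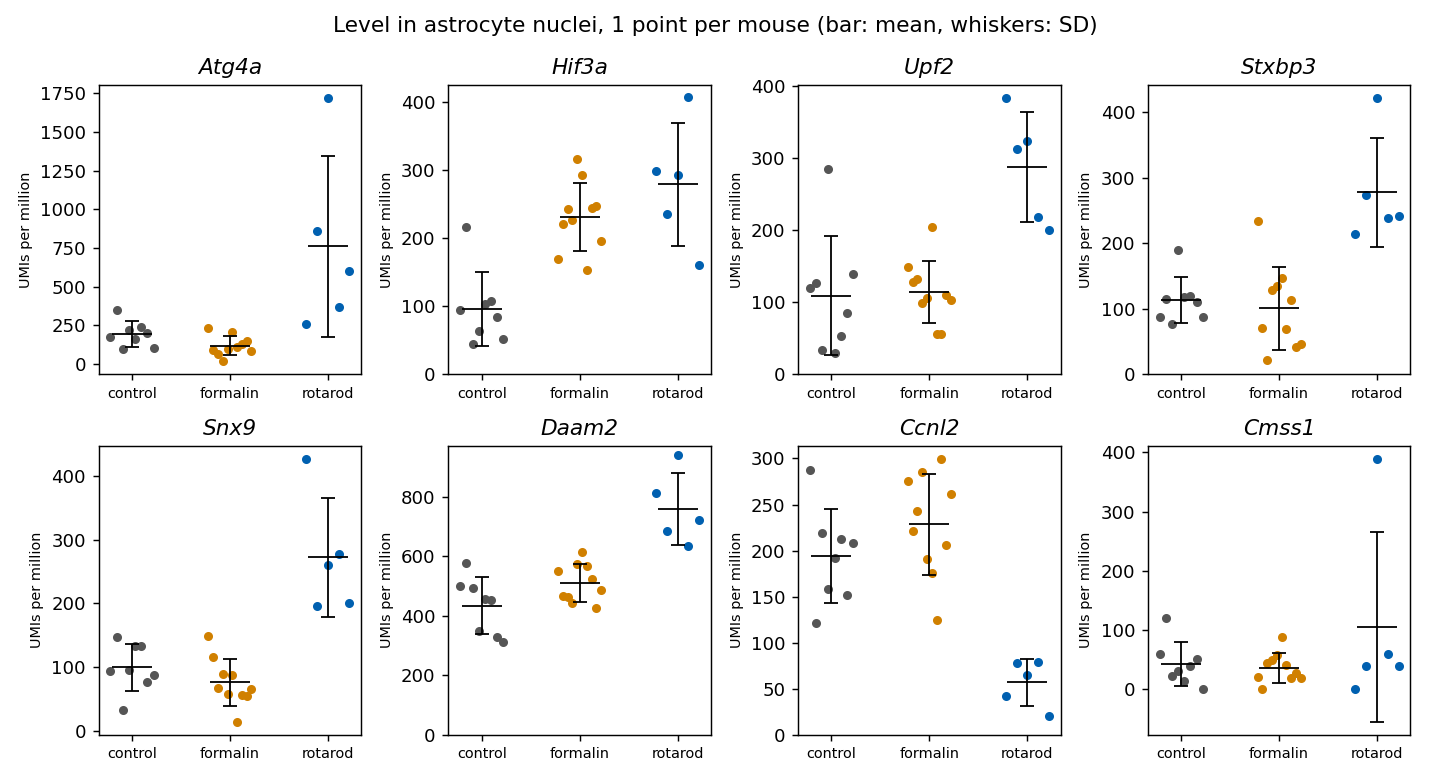
Level of the 8 genes in astrocyte nuclei. Each point is 1 mouse (8 control, 10 formalin, 5 rotarod), the y axis is UMIs per 1000000 UMIs of the class, the bar is the mean and the whiskers are the SD. Rotarod values of Stxbp3, Snx9 and Daam2 lie above every control value, and those of Ccnl2 below. Formalin values of Hif3a lie with the rotarod values. The rotarod and control values entered the choice of the genes.

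Atg4a, the autophagy protease gene, stood in astrocytes at 256, 860, 1718, 367 and 602 CPM in rotarod mice 1 to 5. Control astrocytes ran from 98.6 over a median of 188 to 350 CPM, and formalin astrocytes from 19.7 over 103 to 233 CPM. Rotarod mice thus held 4 values above every control, while rotarod replicate 1 lay within the control range. The value of rotarod replicate 2 rested largely on 1 nucleus, which gave 28 of its 44 UMIs. The means were 761 ± 583 CPM (SD, n = 5) in rotarod and 194 ± 81.0 (n = 8) in control mice, a ratio of 3.92. Without rotarod replicate 3 the ratio was 2.69, so the size of the difference rests partly on that mouse.

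Hif3a differed from the other genes in that formalin astrocytes stood near rotarod astrocytes. It was at 299, 235, 292, 406 and 161 CPM in rotarod mice 1 to 5. In formalin mice it ran from 152 over a median of 235 to 315 CPM, and in control mice from 43.8 over 89.0 to 216 CPM. Control replicate 2 alone reached 216 CPM, and every other control lay at or below 107 CPM, under all formalin and rotarod values. The means were 278 ± 90.4 CPM (n = 5) in rotarod, 231 ± 50.3 (n = 10) in formalin and 95.4 ± 54.1 (n = 8) in control mice. These rest on 77, 167 and 82 UMIs.

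Hif3a was also the gene with the smallest p of all 1804 in formalin against control astrocytes. Its log2 fold change was 1.13 (SE 0.250, edgeR p = 3.79e-05), with an adjusted p of 0.0685 that misses the threshold, and 10 of 10 formalin samples lay above the control median. edgeR called 0 of 1804 genes (percent called 0; unadjusted p fell under 0.05 for 82), while Hif3a was the single call of DESeq2, with an adjusted p of 0.0472. Over the 26 alternative fits the adjusted p for Hif3a ranged from 0.000974 to 0.638. Without control replicate 2 the log2 fold change was 1.49 and the edgeR adjusted p 0.000974, and without formalin replicate 7 it was 1.19 and the edgeR adjusted p 0.0390. With formalin samples 1 to 5 summed with samples 6 to 10 it was 1.11 (edgeR adjusted p = 0.215). The 8 control mice are the same that entered the choice of Hif3a, so the formalin difference is not independent of that choice.

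Hif3a was near 0 in neurons and oligodendrocytes, with an intermediate level in meningeal or Schwann nuclei. In control mice the mean was 41.8 CPM in meningeal or Schwann nuclei, 4.51 in oligodendrocytes and 1.74 in neurons, beside 95.4 in astrocytes. Neurons of all 24 mice gave 17, 22 and 15 Hif3a UMIs in control, formalin and rotarod mice, too few to pass the filter on low counts. Oligodendrocytes gave 7, 16 and 2 UMIs. Free RNA in droplets can leave such UMIs in nuclei that do not express a gene, and the values in neurons and oligodendrocytes were not read as expression.

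Stxbp3 and Snx9, which act on vesicle fusion and endocytosis, were higher in every rotarod mouse than in every control mouse in astrocytes. Both were chosen on these values, and the share of all genes with such a separation was not determined. Stxbp3 stood at 213, 274, 421, 238 and 241 CPM in rotarod mice 1 to 5 and between 76.7 and 190 CPM, with a median of 112, in control mice. Snx9 stood at 427, 195, 259, 277 and 201 CPM in rotarod mice and between 32.9 and 146 CPM, with a median of 94.3, in control mice. The means of Stxbp3 were 277 ± 83.3 and 113 ± 35.3 CPM (ratio 2.46), and those of Snx9 272 ± 93.7 and 99.6 ± 37.1 CPM (ratio 2.73). Formalin mice had 100.3 ± 63.4 CPM of Stxbp3 and 75.5 ± 37.1 of Snx9 (n = 10), overlapping the control values.

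Upf2, the decay factor gene, stood at 384, 313, 324, 218 and 201 CPM in rotarod astrocytes. Control astrocytes ran from 29.5 over a median of 102 to 285 CPM, so the groups overlap through control replicate 4 alone. The means were 288 ± 77.0 CPM (n = 5) in rotarod, 109 ± 83.0 (n = 8) in control and 114 ± 43.7 (n = 10) in formalin mice.

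Daam2, the formin of Wnt signalling, was well detected in astrocytes, and its values lay close together within each group. Rotarod mice 1 to 5 had 811, 684, 940, 634 and 723 CPM, all above the highest control value. Control mice ran from 312 over a median of 455 to 579 CPM, and formalin mice from 426 over 505 to 615 CPM. The ratio of the rotarod mean (758 ± 120) to the control mean (434 ± 95.0) was 1.75, the smallest of the 6 genes that were higher.

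Ccnl2, the speckle-associated cyclin gene, was the 1 gene with a lower level. Rotarod astrocytes had 42.7, 78.2, 64.8, 79.3 and 20.1 CPM, from 16 UMIs in all, and lay below every control and every formalin value. Control astrocytes ran from 121 over a median of 200 to 287 CPM and formalin astrocytes from 125 over 232 to 300 CPM. The rotarod mean was 0.294 of the control mean (57.0 ± 25.4 against 194 ± 51.1 CPM). No rotarod mouse contributed more than 8 of the 16 UMIs, so the counting error of each value is wide.

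Cmss1 did not reach the level required for a fit in astrocytes. It was at 0, 39.1, 389, 59.4 and 40.1 CPM in rotarod mice 1 to 5 and between 0 and 121 CPM in control mice. Only rotarod replicate 3 lay above the controls, with 12 UMIs. Without that mouse the rotarod mean was 34.7 CPM, below the control mean of 42.5.

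In oligodendrocytes the order of the genes differed, and Cmss1 led. Of 3158 genes tested, 0.0317% differed between rotarod and control mice with edgeR, which is Cmss1 alone and again the value by which it was chosen. It stood at 203, 171, 530, 141 and 124 CPM in rotarod mice 1 to 5, and from 30.5 over a median of 60.3 to 96.2 CPM in control mice. All 5 rotarod mice lay above all 8 controls, and how many of all genes do so was not determined. The means were 234 ± 168 and 64.4 ± 25.9 CPM, a ratio of 3.63, which is 2.48 without rotarod replicate 3, and the fitted log2 fold change was 1.72. Formalin oligodendrocytes had 82.3 ± 33.6 CPM (n = 10).

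**Figure D2:**
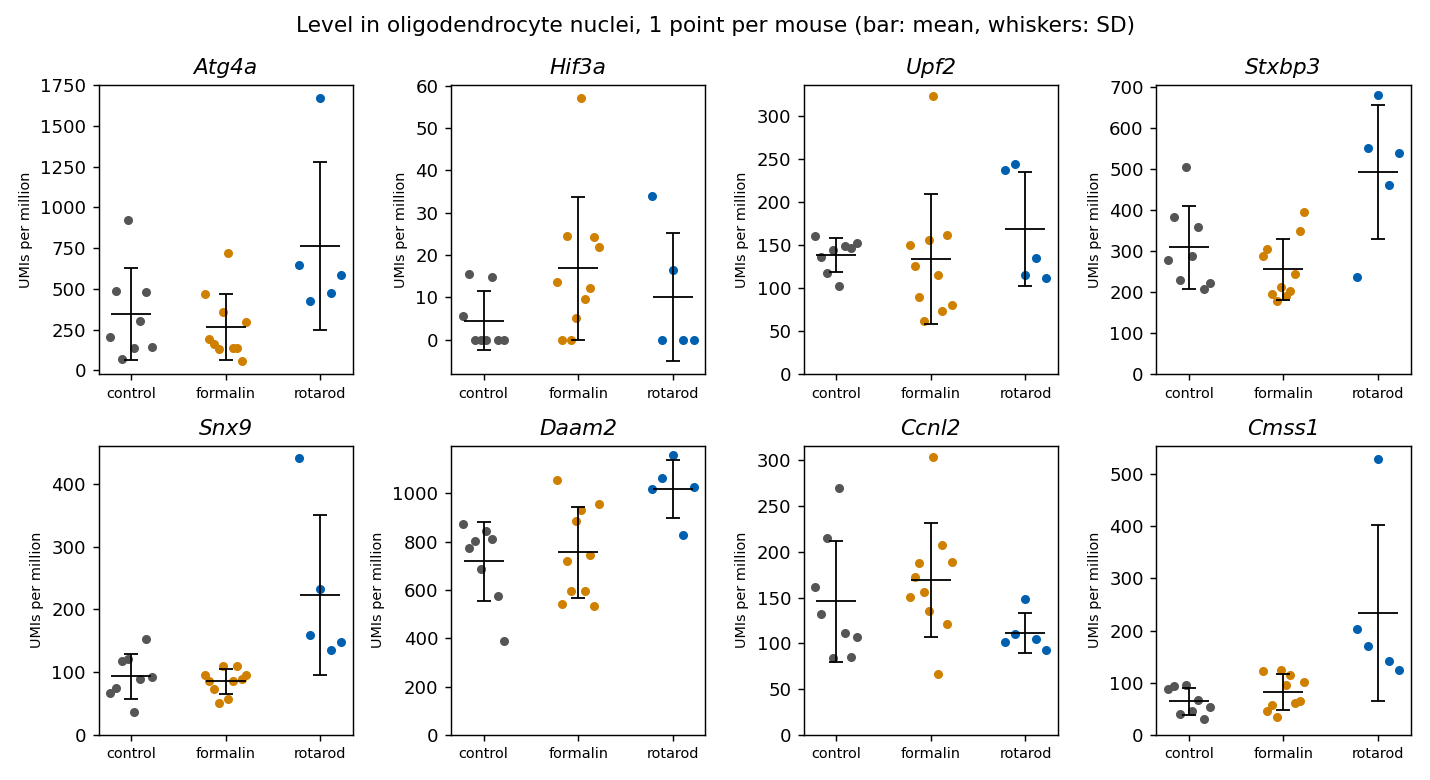
Level of the 8 genes in oligodendrocyte nuclei. Each point is 1 mouse (8 control, 10 formalin, 5 rotarod), the y axis is UMIs per 1000000 UMIs of the class, the bar is the mean and the whiskers are the SD; the 5 rotarod values of Cmss1 lie above all controls, and Hif3a is at or near 0 in most mice.

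The vesicle genes and Daam2 also had higher rotarod means in oligodendrocytes, with overlap between groups. Snx9 stood at 440, 159, 232, 135 and 148 CPM in rotarod mice against 37.1 to 152 in control mice. Stxbp3 stood at 237, 550, 679, 461 and 538 CPM against 207 to 505, and Daam2 at 1016, 1064, 1159, 828.9 and 1026 CPM against 390 to 872. In each of these genes, 3 or 4 of the 5 rotarod mice lay above the highest control value. The fitted log2 fold changes in oligodendrocytes, rotarod against control, were 1.02 for Snx9, 0.75 for Stxbp3 and 0.51 for Daam2. The same values were 0.18 for Upf2 and -0.40 for Ccnl2: Upf2 had means of 169 ± 66.4 and 139 ± 19.6 CPM, and Ccnl2 of 112 ± 21.8 and 146 ± 66.1 CPM. For both genes the groups overlapped, and no test compared the 2 classes.

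Atg4a varied widely between control mice in oligodendrocytes. Control oligodendrocytes ran from 71.7 CPM in replicate 3 to 926 CPM in replicate 4, with a median of 255. Rotarod mice had 644, 428, 1672, 473 and 587 CPM, of which only replicate 3 lay above the controls. The means were 761 ± 517 and 345 ± 281 CPM, and without rotarod replicate 3 the rotarod mean was 533 ± 99.8.

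Among the control mice, Atg4a levels in different cell classes tended to rise together. Over the 8 control mice with values in all 3 classes, log2 levels in neurons and oligodendrocytes correlated at r = 0.713 (exact permutation p = 0.0459) and rho = 0.905 (exact p = 0.00456). Neurons and astrocytes gave r = 0.764 (exact p = 0.0252) and rho = 0.833 (exact p = 0.0154), and oligodendrocytes and astrocytes r = 0.797 (exact p = 0.0187) and rho = 0.857 (exact p = 0.0107). The 3 relations had adjusted exact p values of 0.0459, 0.0378 and 0.0378 for r. Without the 2 mice farthest from the median, r over 6 mice was 0.773 (exact p = 0.0764), 0.704 (exact p = 0.0986) and 0.814 (exact p = 0.0444). The relation of neurons to either glial class missed 0.05 over these fewer mice. Its r was higher than over 8 mice for oligodendrocytes and lower for astrocytes. The classes of a mouse share 1 library, and the part of RNA that moved between droplets was not tested. Only Atg4a was examined in this way, and the share of all genes with such a relation was not determined. The relation therefore cannot be called particular to Atg4a. The control glia values also entered the choice of the genes, so these p values are given as a description only.

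**Figure D3:**
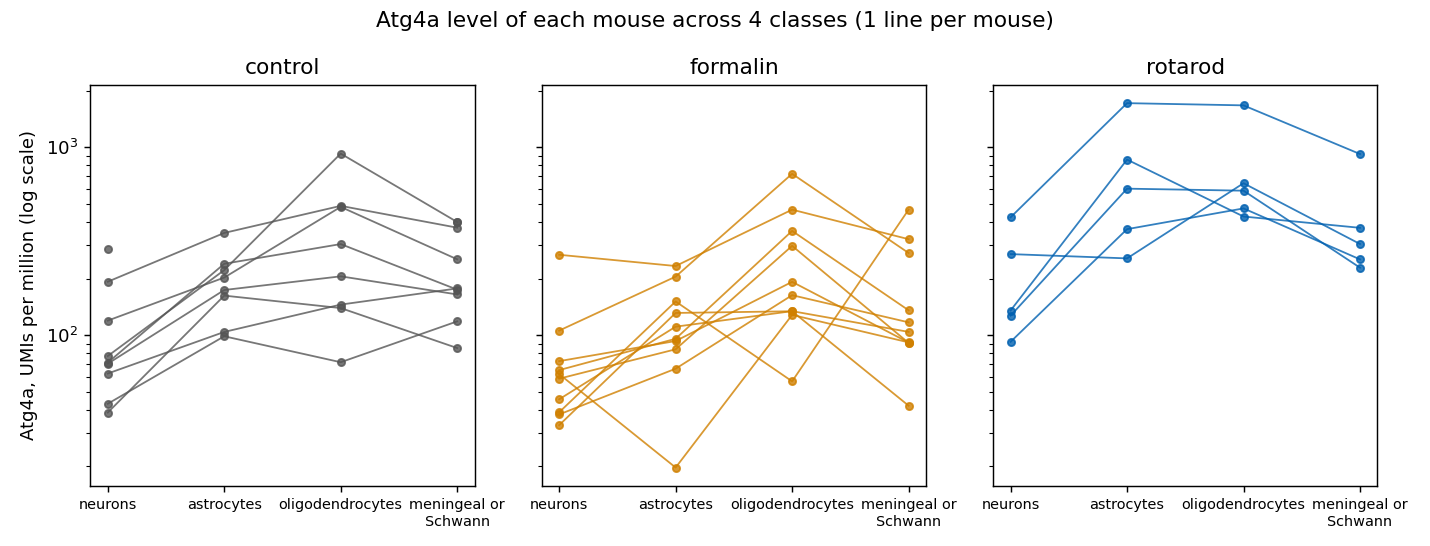
Atg4a in 4 classes of each mouse. Each line is 1 mouse, the y axis is UMIs per 1000000 UMIs of the class on a log scale, and the panels are control, formalin and rotarod mice; the highest line of the rotarod panel is replicate 3, which reaches 1718 CPM in astrocytes and 1672 in oligodendrocytes.

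The comparison of formalin with rotarod glia uses the rotarod samples that chose the genes, so its values are a description. In astrocytes 1.33% of 1804 genes differed between formalin and rotarod mice with edgeR, among them 5 of the 7 genes fitted. Atg4a had a mean of 119 ± 63.9 CPM in formalin astrocytes, 0.156 of the rotarod mean, and Ccnl2 had 228 ± 55.2 CPM, 4.01 times the rotarod mean. For Ccnl2 all 10 formalin samples lay above all 5 rotarod samples, and for Atg4a all 5 rotarod samples lay above all 10 formalin samples. The share of all genes separated in this way was not determined. Hif3a and Daam2 are the 2 genes outside the calls. In oligodendrocytes 0.475% of 3158 genes differed, among them Stxbp3, Snx9 and Cmss1.

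Formalin against control was not used in the choice, though it shares the control mice, and none of the 8 genes passed it with edgeR in a class where it could be fitted. edgeR called 0 genes in astrocytes, neurons, oligodendrocytes, meningeal or Schwann nuclei, endothelial or vascular nuclei and oligodendrocyte precursors (percent called 0 in each), and 82 of 1804, 766 of 9103, 178 of 3158, 187 of 3273, 56 of 1334 and 6 of 129 genes had p under 0.05 before adjustment. DESeq2 called 1 gene in astrocytes (Hif3a), 2 in neurons and 1 in precursors, and of the 8 genes only Hif3a. In neurons, Snx9 had a log2 difference of -0.50 (standard error 0.200, edgeR adjusted p = 0.545) and Stxbp3 -0.75 (SE 0.315, edgeR adjusted p = 0.545), the 2 genes with an unadjusted p under 0.05 there. Formalin neurons had 47.8 ± 16.3 CPM of Snx9 (n = 10) against 61.9 ± 18.7 (n = 9) in control neurons, and 18.8 ± 10.6 of Stxbp3 against 29.6 ± 13.4. In astrocytes Atg4a had -0.87 (SE 0.349, edgeR adjusted p = 0.934), opposite in sign to its rotarod difference. The median over the 7 genes tested was -0.26 in neurons, 0.13 in astrocytes and -0.17 in oligodendrocytes, beside medians near 0 over all genes. A test of whether the formalin effect differed between astrocytes, oligodendrocytes and neurons, added after the data were seen, called 0 of 5009 genes for astrocytes against neurons, 0 of 5672 for oligodendrocytes against neurons and 0 of 2856 for astrocytes against oligodendrocytes with edgeR. The smallest unadjusted p of the 8 genes in it was that of Atg4a in astrocytes against neurons, a difference of -0.59 (edgeR p = 0.0490, adjusted p = 1.00).

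**Figure D4:**
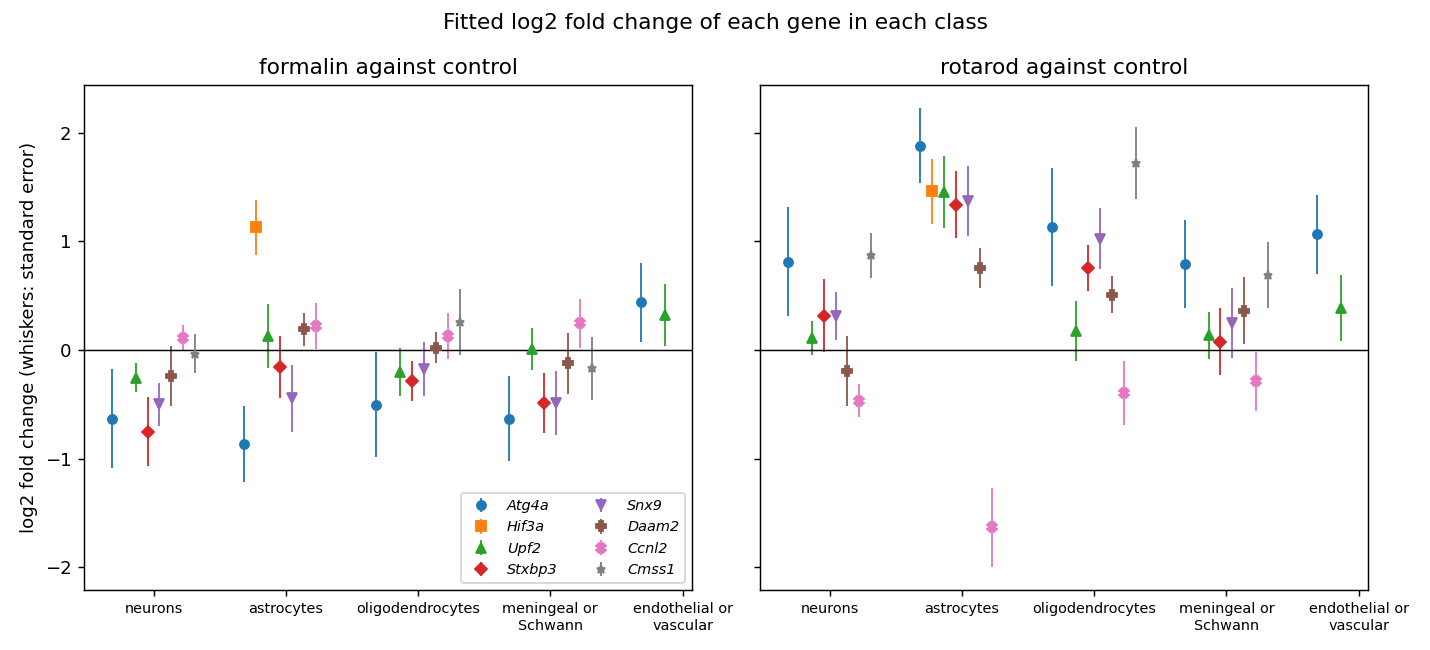
Fitted log2 fold change of each gene in 5 classes, formalin against control on the left and rotarod against control on the right, with whiskers for the standard error. A gene without a symbol in a class was too low to be fitted; the rotarod values in astrocytes, oligodendrocytes and meningeal or Schwann nuclei belong to the glial contrast by which the genes were chosen.

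Neurons were not part of the choice, but they come from the same mice and libraries as the glia. Rotarod against control gave 0 edgeR calls among 9103 genes in neurons (percent called 0; unadjusted p fell under 0.05 for 782), where DESeq2 made 15 calls. Cmss1 was nearest: it stood at 159, 45.5, 137, 68.2 and 62.3 CPM in rotarod neurons and from 34.1 over a median of 44.6 to 76.2 CPM in control neurons. Rotarod replicates 1 and 3 were the mice above the control range. They were also the 2 shallowest rotarod libraries, with 660286 and 752467 UMIs in all, against 1252716 or more in the others. The 2 shallowest control libraries, replicates 4 and 5 (640279 and 796708 UMIs), had 40.4 and 34.1 CPM of Cmss1 in neurons. Those of formalin, replicates 6 and 1 (549903 and 745790 UMIs), had 41.5 and 68.2 CPM. The part of depth in these values was not tested. The fitted log2 difference was 0.87 (standard error 0.203, edgeR adjusted p = 0.0756), DESeq2 gave an adjusted p of 0.0330, and over 20 alternatives the adjusted p ranged from 0.00382 to 0.280. It passed with edgeR without control replicate 2 (adjusted p = 0.0364), without rotarod replicate 2 (adjusted p = 0.0435) and with no filter on low counts (adjusted p = 0.00382).

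Ccnl2 did not pass the test in rotarod against control neurons. It stood at 100.3, 66.9, 49.9, 77.7 and 77.0 CPM in rotarod mice and from 77.4 over a median of 102 to 144 CPM in control mice, a log2 difference of -0.47 (standard error 0.1498, edgeR adjusted p = 0.287). Of the other genes in rotarod neurons, Atg4a had 0.81 (SE 0.503), Stxbp3 0.32, Snx9 0.31, Upf2 0.11 and Daam2 -0.19, with edgeR adjusted p values from 0.692 to 0.925. In endothelial or vascular nuclei only Atg4a and Upf2 were fitted, and 0 of 1334 genes were called with edgeR (unadjusted p fell under 0.05 for 128, and DESeq2 made 0 calls). Atg4a had a log2 difference of 1.06 there (standard error 0.362, edgeR adjusted p = 0.384).

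In neurons, formalin against rotarod was the comparison that gave edgeR calls. Of 9103 genes, 2.15% differed with edgeR, and of the 7 genes fitted in neurons 2 passed. Cmss1 was lower in formalin neurons, at 49.2 ± 9.12 CPM (n = 10) against 94.5 ± 50.4 (n = 5), a log2 difference of -0.90 (standard error 0.208, edgeR adjusted p = 0.0192). Ccnl2 was higher in formalin neurons, at 121 ± 22.8 against 74.3 ± 18.3 CPM, a log2 difference of 0.58 (standard error 0.151, edgeR adjusted p = 0.0311), and 9 of 10 formalin samples lay above the highest rotarod value. Snx9 had -0.81 (SE 0.233, edgeR adjusted p = 0.0581) and Stxbp3 -1.07 (SE 0.370, edgeR adjusted p = 0.123), and DESeq2 called both, with adjusted p values of 0.0213 and 0.0258. Over all 9103 genes DESeq2 made 263 calls and edgeR 196.

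Both calls depended on single mice and on how formalin samples were counted. With formalin samples summed in pairs, Cmss1 had an edgeR adjusted p of 0.0942 and Ccnl2 of 0.104. Cmss1 was lost without rotarod replicate 1 (edgeR adjusted p = 0.0822) and without rotarod replicate 3 (edgeR adjusted p = 0.0663). Ccnl2 was lost without rotarod replicate 2, 3, 4 or 5 and without formalin replicate 3 or 8, with edgeR adjusted p values from 0.0516 to 0.0970. Leaving out formalin replicate 1 gave 4 calls, with Atg4a (edgeR adjusted p = 0.0475) and Stxbp3 (edgeR adjusted p = 0.0470) added. The share of all genes called in that fit is not given here.

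**Figure D5:**
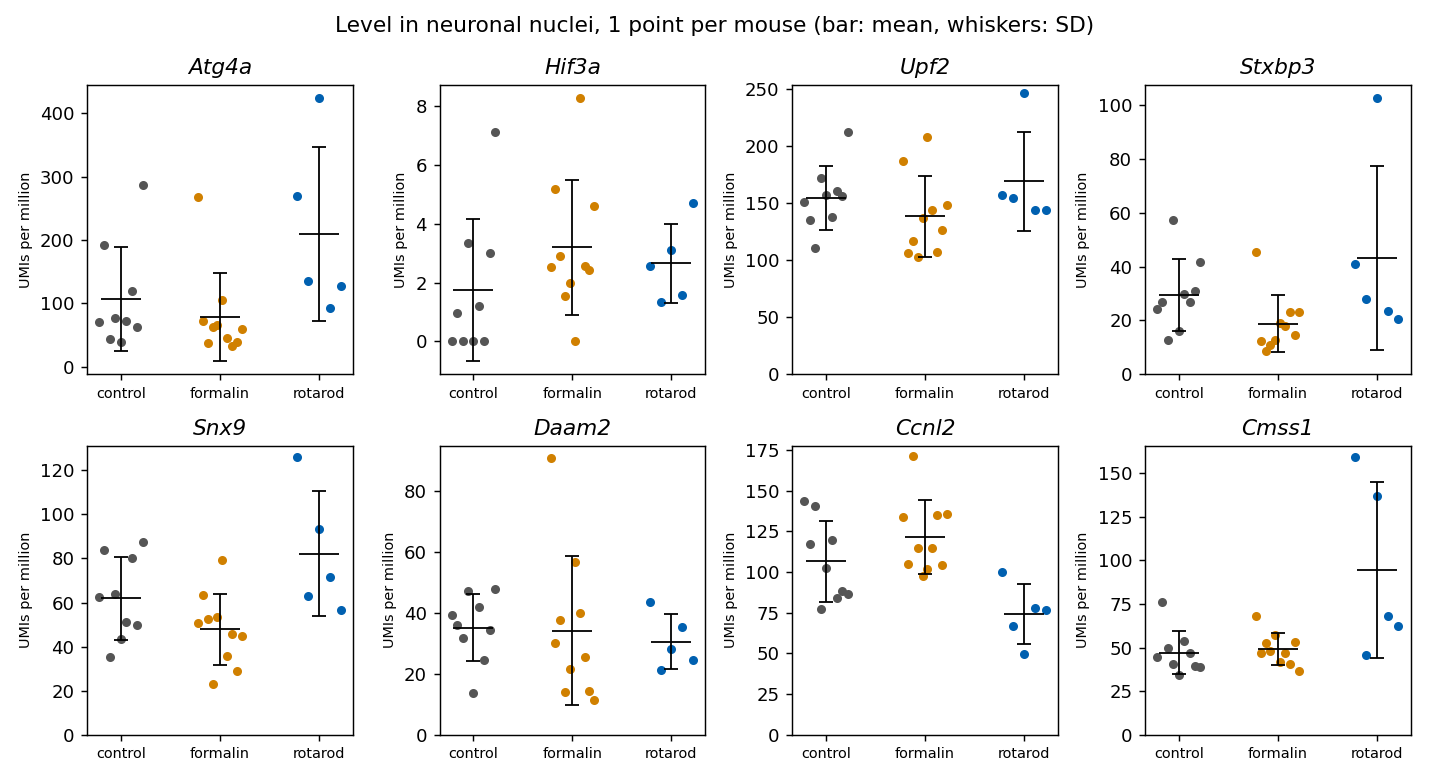
Level of the 8 genes in neuronal nuclei. Each point is 1 mouse (9 control, 10 formalin, 5 rotarod), the y axis is UMIs per 1000000 UMIs of the class, the bar is the mean and the whiskers are the SD; rotarod replicates 1 and 3 carry the highest Cmss1 values, 159 and 137 CPM.

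Among the neuron families that the deposited annotation calls DE, DI and VI, the Cmss1 mean in DE neurons of rotarod mice was 144 ± 83.9 CPM (n = 5) against 54.0 ± 21.6 (n = 9) in control mice. It was 73.9 ± 30.8 against 55.2 ± 23.0 CPM in DI. Ccnl2 in DE was 79.2 ± 23.4 CPM in rotarod and 119 ± 45.8 (n = 10) in formalin mice. Atg4a in VI was 261 ± 181 CPM (n = 4) in rotarod and 119 ± 117 (n = 8) in control mice. These family values were not tested.

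Meningeal or Schwann nuclei held 7 genes that could be fitted, and their rotarod values, counted with the glia of the choice, are a description. Of 3273 genes, 0.0917% differed between rotarod and control mice with edgeR, and none of the 8 was among them; in formalin against rotarod mice it was 0.0611%, again with none of the 8. Atg4a had 306, 373, 921, 253 and 229 CPM in rotarod mice against 85.3 to 400.5 in control mice, with replicate 3 alone above the controls. Cmss1 had means of 182 ± 108 (n = 5) and 114 ± 41.1 CPM (n = 9). Hif3a stood at 32.5 ± 19.1 CPM in rotarod and 41.8 ± 35.1 in control mice, with overlapping ranges.

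Oligodendrocyte precursors and microglia were too few for a comparison by mouse with rotarod. Pooled over mice, microglia gave 20 Atg4a UMIs in rotarod mice, a level of 307 CPM with an exact Poisson interval from 188 to 475, and 7 in control mice, 95.7 CPM with an interval from 38.5 to 197. Precursors gave 7 Atg4a UMIs in rotarod mice, 354 CPM with an interval from 142 to 729, and 16 in control mice, 198 CPM with an interval from 113 to 322. Both precursor levels rested on 1 library: 5 of the 7 rotarod UMIs came from 1 nucleus of replicate 4, without which the level was 140 CPM, and 9 of the 16 control UMIs came from replicate 2, without which it was 102 CPM. The 95% intervals cover counting error only. Nuclei that the authors discarded gave 361 CPM of Cmss1 in rotarod mice, interval 298 to 433, and 147 in control mice, interval 122 to 175. Rotarod replicate 3 held 60 of those 114 rotarod UMIs, and without it the level was 217 CPM. Control replicate 2 held 60 of the 123 control UMIs, and without it the control level was 103 CPM.

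No other gene of the listed pathways passed against control with edgeR. In 10 lists of 213 further genes, 0 of 435 tests passed in formalin against control (33 at an unadjusted p under 0.05, 1 called with DESeq2) and 0 of 430 in rotarod against control (39 at an unadjusted p under 0.05, 2 called with DESeq2). Over all genes of a class, 4.2% to 8.41% had an unadjusted edgeR p under 0.05 in formalin against control. In rotarod against control it was 7.3% to 9.97%. Of the autophagy genes, 2 were fitted in astrocytes and 8 in oligodendrocytes. In neurons, 26 were fitted, and the paralogues Atg4b and Atg4d had 0.23 and -0.23 in rotarod against control mice (edgeR adjusted p = 0.805 and 0.867). Atg4c, the other paralogue, had a log2 fold change of 0.18 in rotarod against control oligodendrocytes (edgeR adjusted p = 0.904). Of the hypoxia genes, 4 were fitted in astrocytes: Hif1a, the oxygen-sensing transcription factor gene, had 0.02 and Vegfa, which encodes a vascular growth factor and is a classic target of that factor, -0.89 (edgeR adjusted p = 0.385) in rotarod against control mice.

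Of the glucocorticoid-responsive genes, 8 were fitted in astrocytes, 7 of them with a positive fold change in formalin against control mice and 3 with p under 0.05 before adjustment. Over all 1804 genes the shares were 50.2% positive and 4.55% with p under 0.05. In rotarod against control astrocytes 5 of the 8 were positive and 3 had p under 0.05, where the shares over all genes were 49.4% and 8.37%. The list was chosen with earlier results of these data known. Zbtb16 and Nr3c1, given next, are among its positive genes in both comparisons. Zbtb16, a transcription factor gene induced by glucocorticoids, had 1.06 in formalin (edgeR adjusted p = 0.438) and 0.94 in rotarod astrocytes (edgeR adjusted p = 0.401), and Nr3c1, the glucocorticoid receptor gene, 0.28 and 0.85 (edgeR adjusted p = 0.934 and 0.336). The median over the list in astrocytes was 0.53 in formalin and 0.49 in rotarod against control, beside medians near 0 over all 1804 genes. Cables1 of the same list passed in formalin against rotarod astrocytes, at -1.35 (edgeR adjusted p = 0.0191).

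In neurons the list of cyclin, splicing kinase and splicing factor genes held 3 calls in formalin against rotarod mice, of 28 fitted, where 2.15% of all 9103 genes were called. Over all lists and classes 6 of 430 tests passed in that comparison, and 74 had p under 0.05 before adjustment. Over all genes the called share ran from 0% in endothelial or vascular nuclei to 2.15% in neurons. The share with p under 0.05 ran from 9.23% in meningeal or Schwann nuclei to 17.8% in neurons. Srsf5 (0.90, edgeR adjusted p = 0.0104) and Srsf7 (0.77, edgeR adjusted p = 0.0426), which encode splicing factors, were higher in formalin neurons, like Ccnl2, and Dyrk1a (-0.82, edgeR adjusted p = 0.0168), which encodes a kinase, was lower. Ccnl1, the paralogue of Ccnl2, had -0.06 (edgeR adjusted p = 0.906). Upf3b, a partner of Upf2, had 0.67 in rotarod against control astrocytes (edgeR adjusted p = 0.466).

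Daam1, the paralogue of Daam2, had -0.58 in rotarod against control astrocytes (edgeR adjusted p = 0.579), and Snx18, a relative of Snx9, had 0.23 in rotarod against control neurons (edgeR adjusted p = 0.910). Filip1l, which overlaps Cmss1, had 0.72 in rotarod against control neurons (edgeR adjusted p = 0.494). Gm42418, a gene that overlaps ribosomal RNA repeats, had a log2 fold change of 1.36 in neurons, 1.34 in astrocytes and 1.22 in oligodendrocytes, rotarod against control, and passed in none (edgeR adjusted p = 0.372, 0.234 and 0.457). In neurons and oligodendrocytes its fold changes had the sign of those of Cmss1, which was not fitted in astrocytes. The part of Gm42418 in the Cmss1 values was not tested. Camk1d (-0.58, edgeR adjusted p = 0.0184) and Gm26917 (-0.96, edgeR adjusted p = 0.0391) passed with Cmss1 in formalin against rotarod neurons.

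The genes most alike across 23 mice were found by Pearson correlation of log2 levels over all genes tested in a class. Hif3a in astrocytes was most like Plcd4 (r = 0.697), Folh1 (0.662) and Zbtb16 (0.647), and with group means removed these fell to 0.334, 0.463 and 0.356. Atg4a in oligodendrocytes was most like Ppp4r1l-ps (0.820), Rbm25 (0.801) and St3gal3 (0.791), and these stayed at 0.779, 0.730 and 0.814 with group means removed. Upf2 in astrocytes was most like Eea1 (0.765), Cmip (0.750) and Eif3a (0.730), and Ccnl2 like Atp1b2 (0.714), Nisch (0.689) and Cdc37l1 (0.683). Snx9 in astrocytes had Rassf2 (0.758), Cables1 (0.731) and Stxbp3 (0.711), another of the 8, and these were 0.447, 0.458 and 0.311 with group means removed. Snx9 and Stxbp3 were both chosen for a rotarod difference, which by itself raises their correlation over all mice. In oligodendrocytes Stxbp3 had Ephb1 (0.776), St6galnac3 (0.775) and Sh3bp5 (0.695), Daam2 had Zfp638 (0.728), Spock1 (0.726) and Tmtc2 (0.715), and Cmss1 had Zfp536 (0.799), Sufu (0.753) and St3gal3 (0.747). With group means removed, the values of Upf2, Ccnl2, Stxbp3, Daam2 and Cmss1 ran from 0.363 (Atp1b2 with Ccnl2) to 0.728 (St3gal3 with Cmss1). The mice share depth and group differences, so these correlations are descriptions.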

How the data were processed

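Raw UMI counts, deposited by the authors, cover 32962 genes and 18000 barcodes, and a second table gives most barcodes a class and part of the neurons a family. Genome builds are mm10 and GRCm38 per the submitters' processing notes; not given in the sources used here are the aligner, annotation and intron counting. Samples were grouped by the labels, whose formalin and rotarod numbers do not pair mice. Nothing says whether each sample is a separate preparation beyond the labels calling them mice, so p-values measure the spread between these samples.

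UMI counts were summed per mouse and class (at least 10 nuclei) and tested with edgeR 4.0.16 in R 4.3.3 (quasi-likelihood, TMM, filterByExpr by group, robust, 1 fit over 3 groups), with Benjamini-Hochberg adjustment over all genes of a class at 0.05. Fold changes are fitted on the log2 scale. A prior count of 2 entered only the log2 levels used to find the most alike genes and to correlate samples. Levels are means over mice of counts per 1000000 UMIs. Astrocyte totals ranged from 23425 to 157158 UMIs per mouse, so 1 UMI is worth up to 42.7 CPM. Atg4a correlations used exact permutation, two-sided. Alternatives were DESeq2 1.42.0, its size factors in edgeR, no filter, at least 20 nuclei, the 2 groups alone, leaving out each mouse or the 3 controls whose titles end in cx, formalin pairs summed, nuclei thinned to 500 UMIs, and the replicate block. Doublets were not called again. The fits were tested on simulated counts.

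The members and lists were chosen with earlier results of these data known. The rule named the 8 genes, up to 3 called genes per list, comparison and class, listed paralogues, and the 3 most alike genes each. Ddo, Vegfa, Nr3c1 and Gm42418 were named outside that rule. Some genes that the rule names are not reported here. Python 3.11.15 with numpy 2.4.6, scipy 1.17.1, pandas 2.3.3 and matplotlib 3.10.9 was used.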

Additional observations from a re-analysis of the deposited data

Results flagged for a closer look

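Among 63 groups of values in neurons, astrocytes and oligodendrocytes, 13 held 1 mouse far from the others of its group, by the gap to its neighbour over the whole range; chance flags about 5% of groups. Rotarod replicate 3 was such a mouse for Upf2 in neurons (246 CPM, next 157), Stxbp3 in neurons (103, next 41.1) and in astrocytes (421, next 274), Atg4a in oligodendrocytes (1672, next 644) and Cmss1 in oligodendrocytes (530, next 203). Control replicate 2 was one for Hif3a in astrocytes (216, next 107) and Cmss1 in neurons (76.2, next 53.7), and control replicate 4 for Upf2 (285, next 139) and Stxbp3 (190, next 120) in astrocytes. Formalin replicate 1 was one for Atg4a (268, next 106) and Stxbp3 (45.5, next 23.0) in neurons, formalin replicate 3 for Ccnl2 in neurons (172, next 136) and formalin replicate 6 for Upf2 in oligodendrocytes (323, next 162). The UMI totals of rotarod replicate 3 (752467), control replicate 4 (640279) and formalin replicates 1 (745790) and 6 (549903) were among the 2 lowest of their groups. Those of control replicate 2 (2004811) and formalin replicate 3 (864418) were not. The cause was not tested.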

How the results depend on the processing

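No called value changed direction under an alternative, and 45 values that were not called changed sign. Formalin against control called 0 of the 8 genes, 1 with DESeq2 (Hif3a) and 0 to 1 without each mouse (1 without control replicate 2 or formalin replicate 7). Rotarod against control outside glia called 0, 1 with DESeq2, 1 with no filter on low counts and 0 to 1 without each mouse (Cmss1 each time). Formalin against rotarod outside glia called 2, 4 with DESeq2, 0 with formalin samples summed in pairs, 0 with nuclei thinned to 500 UMIs and 0 to 4 without each mouse (0 without rotarod replicate 3). Over all 9103 genes in neurons, edgeR called 196 in that comparison and DESeq2 263. Formalin and rotarod samples of the same number correlated at -0.107 to 0.0462, so the numbers do not pair formalin with rotarod samples (formalin samples 1 to 5 do resemble 6 to 10); the replicate block over samples 1 to 5 gave 0 calls (Cmss1 -0.66, edgeR adjusted p = 0.128; Ccnl2 0.58, 0.119) and the same samples without the block also gave 0 (0.251 and 0.104). In glia, 12 values of the 8 genes were higher in rotarod than in control mice and 4 after thinning, where only 4 could be fitted, and 2 were higher in formalin than in rotarod mice, against 1 with the replicate block, 1 without it over the same samples and 0 after thinning. The 12 were 6 of 7 genes fitted in each of astrocytes and oligodendrocytes, where 49.4% and 49% of all genes were higher. Directions in rotarod glia entered the choice of the genes, so these counts describe the fits only. Listed genes called in formalin against control numbered 0, 1 with DESeq2 and 2 with no filter, and in rotarod against control 0, 2 with DESeq2, 2 with no filter and 0 to 2 without each mouse (2 without control replicate 2, 1 without rotarod replicate 2). Few nuclei limit the values in glia: rotarod astrocytes gave 27 to 43 nuclei a mouse. Where other causes were not named, the cause was not tested.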
